A study of Mus musculus with 16 samples.

Results

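The genes described here store and release triglyceride in lipid droplets. They are the droplet coat genes Plin2, Plin3 and Plin5, the lipase genes Pnpla2, Lipe and Mgll, the Pnpla2 relative Pnpla3, the lipase activator Abhd5, the lipase inhibitor G0s2 and the synthesis gene Dgat2. These 10 members were taken from a list of symbols, through the RefSeq accession that each array probe carries, and all 10 were among the 21280 genes tested. Of the genes tested, 14149 had a symbol. The rest are array target names that matched no symbol, each counted as 1 gene. Shares of all genes below include both kinds, so some genes may count more than once. They had 16 probes, of which 15 were kept. Gene expression was measured in whole quadriceps muscle of male mice aged 8 weeks, with 1 array per sample and 4 arrays in each of 4 groups. The groups were mFoxO-TKO mice fasted for 24 h, mFoxO-TKO mice fed freely, wild-type (WT) mice fasted for 24 h, and WT mice fed freely. In mFoxO-TKO mice, a Cre recombinase driven by the human α-actin (HSA) promoter deletes FoxO1, FoxO3 and FoxO4 in skeletal muscle, so other cells of the muscle are not targeted. The sources used here do not say whether WT mice were littermates or carried floxed alleles or Cre.

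A lipid droplet is a core of triglyceride under a single layer of phospholipid, which the perilipin proteins coat. Triglyceride is broken down in sequence: Pnpla2 encodes adipose triglyceride lipase (ATGL), which removes the first fatty acid, Lipe encodes hormone-sensitive lipase, which acts on diglyceride, and Mgll encodes monoglyceride lipase. ABHD5 activates ATGL and G0S2 inhibits it, whereas DGAT2 makes triglyceride from diglyceride. In muscle the droplets lie close to mitochondria, which burn the released fatty acids. Insulin signalling keeps FoxO proteins, a family of transcription factors, out of the nucleus, so that fasting favours their activity.

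The sequences just before the gene start are shown for the members whose expression changed most with fasting or with the knockout, and for the members with a match to the DNA motif that FoxO proteins bind. They are the 250 bases before the start in RefSeq (GRCm38.p6), read 5′ to 3′ on the strand of the gene. Capitals mark matches to any of 6 motifs searched on both strands: GTAAACA (FoxO core), AGGTCANAGGTCA (the paired site of PPAR factors), AGGTCA (a single nuclear receptor site, which also forms each arm of the paired one), TCACNCCAC (sterol element), CACGTG (E-box) and CCAAT.
Plin5, chr17:56117549-56117798, minus strand: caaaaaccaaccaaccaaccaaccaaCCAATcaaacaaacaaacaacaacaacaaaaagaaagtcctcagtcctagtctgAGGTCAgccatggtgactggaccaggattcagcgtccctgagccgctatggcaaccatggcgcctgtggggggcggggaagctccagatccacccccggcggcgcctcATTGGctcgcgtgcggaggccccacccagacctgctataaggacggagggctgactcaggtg
Pnpla2, chr7:141454938-141455187, plus strand: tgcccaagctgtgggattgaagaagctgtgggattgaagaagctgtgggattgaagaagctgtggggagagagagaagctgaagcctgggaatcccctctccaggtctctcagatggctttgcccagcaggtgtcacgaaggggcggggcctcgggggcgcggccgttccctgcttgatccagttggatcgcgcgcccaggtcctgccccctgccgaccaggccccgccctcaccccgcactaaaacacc
G0s2, chr1:193273189-193273438, minus strand: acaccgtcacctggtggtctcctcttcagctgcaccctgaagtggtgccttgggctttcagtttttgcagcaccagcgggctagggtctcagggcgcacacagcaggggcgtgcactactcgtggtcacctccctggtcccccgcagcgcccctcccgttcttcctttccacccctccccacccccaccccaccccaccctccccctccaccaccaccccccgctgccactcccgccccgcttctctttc
Pnpla3, chr15:84167566-84167815, plus strand: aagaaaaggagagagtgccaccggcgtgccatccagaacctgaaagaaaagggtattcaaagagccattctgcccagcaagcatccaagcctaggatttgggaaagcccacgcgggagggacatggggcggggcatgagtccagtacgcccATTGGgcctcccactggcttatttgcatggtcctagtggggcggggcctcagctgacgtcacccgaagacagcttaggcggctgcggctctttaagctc
Mgll, chr6:88724162-88724411, plus strand: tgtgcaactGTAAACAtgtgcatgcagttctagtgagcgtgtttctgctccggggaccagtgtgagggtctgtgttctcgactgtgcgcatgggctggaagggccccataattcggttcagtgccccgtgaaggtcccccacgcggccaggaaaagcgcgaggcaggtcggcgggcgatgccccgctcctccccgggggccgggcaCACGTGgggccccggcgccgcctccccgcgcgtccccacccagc
Lipe, chr7:25390113-25390362, minus strand: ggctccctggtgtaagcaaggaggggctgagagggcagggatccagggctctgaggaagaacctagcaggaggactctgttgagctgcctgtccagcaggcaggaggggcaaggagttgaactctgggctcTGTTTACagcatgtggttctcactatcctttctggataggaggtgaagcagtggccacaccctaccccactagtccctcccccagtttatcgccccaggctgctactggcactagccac

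Over 32851 windows of 300 bases around gene starts, 250 before and 50 after, GTAAACA was present in 3.65%, AGGTCANAGGTCA in 0.0396%, TCACNCCAC in 1.24%, AGGTCA in 16.3%, CACGTG in 7.15% and CCAAT in 37.4%. The table held 12 windows for 9 of the 10 members. Among these windows the FoxO core was found once in the first Mgll window, from 241 to 235 bases before the start, and once in the second Lipe window, on the other strand. Plin5 had a single nuclear receptor site from 170 to 165 bases before its start, Pnpla3 had a CCAAT box, and the windows of Pnpla2 and G0s2 held none of the 6 motifs. Neither match was particular to its gene. Single nuclear receptor sites also lay in the Plin2, Abhd5 and second Plin5 windows, and CCAAT boxes in the Plin2, Plin3 and first Plin5 windows. A match is a string of letters and not a binding site, and a window without one says only that these letters are not in it.

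The targeted genes were read first. Foxo1 was 10.5-fold lower in fasted mFoxO-TKO than in fasted WT muscle and 3.38-fold lower in fed mFoxO-TKO than in fed WT muscle (adjusted p = 3.38e-07 and 0.00117), on a probe whose place relative to the deleted exons was not determined. That Foxo1 probe stayed well above background on 8 of 8 mFoxO-TKO arrays. Another Foxo1 probe was kept and is not described here. The Foxo4 probe used was well above background on 0 of 8 mFoxO-TKO arrays and on 8 of 8 WT arrays. Another Foxo4 probe was kept, was well above background on 8 of the 16 arrays, and is not described further. Foxo3 had 1 dim probe and did not pass between the genotypes in either feeding state, and since that probe's place relative to the deleted exons is also unknown it checks nothing. Its log2 difference, mFoxO-TKO minus WT, within slides 1 and 2 was 0.81 and 0.67 in fed and -1.02 and -0.49 in fasted muscle. All 8 muscle fibre markers on the list were tested with limma; 0 of them passed in any comparison and 0 had an unadjusted p under 0.05. Arrays had 45.0% to 75.2% of spots well above background and 0 saturated spots. Slide 1 held replicates 1 and 2 of every group, and slide 2 held the others. On both slides the arrays of a group shared a single column, so array position and group cannot be told apart. The labels do not say that each replicate is a different animal, so p-values measure the spread between these samples, which may be partly technical.

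A level below is the log2 signal of a gene's brightest probe minus the 75th percentile of its array. Levels of different probes are not comparable. A change is the difference between 2 group means of these log2 levels ± the standard error of a linear model over all 16 arrays (limma), with n = 4 arrays per group. A change passed at an adjusted p under 0.05 over all genes tested. The probes used for the 10 genes were well above background on all 16 arrays.

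**Figure D1:**
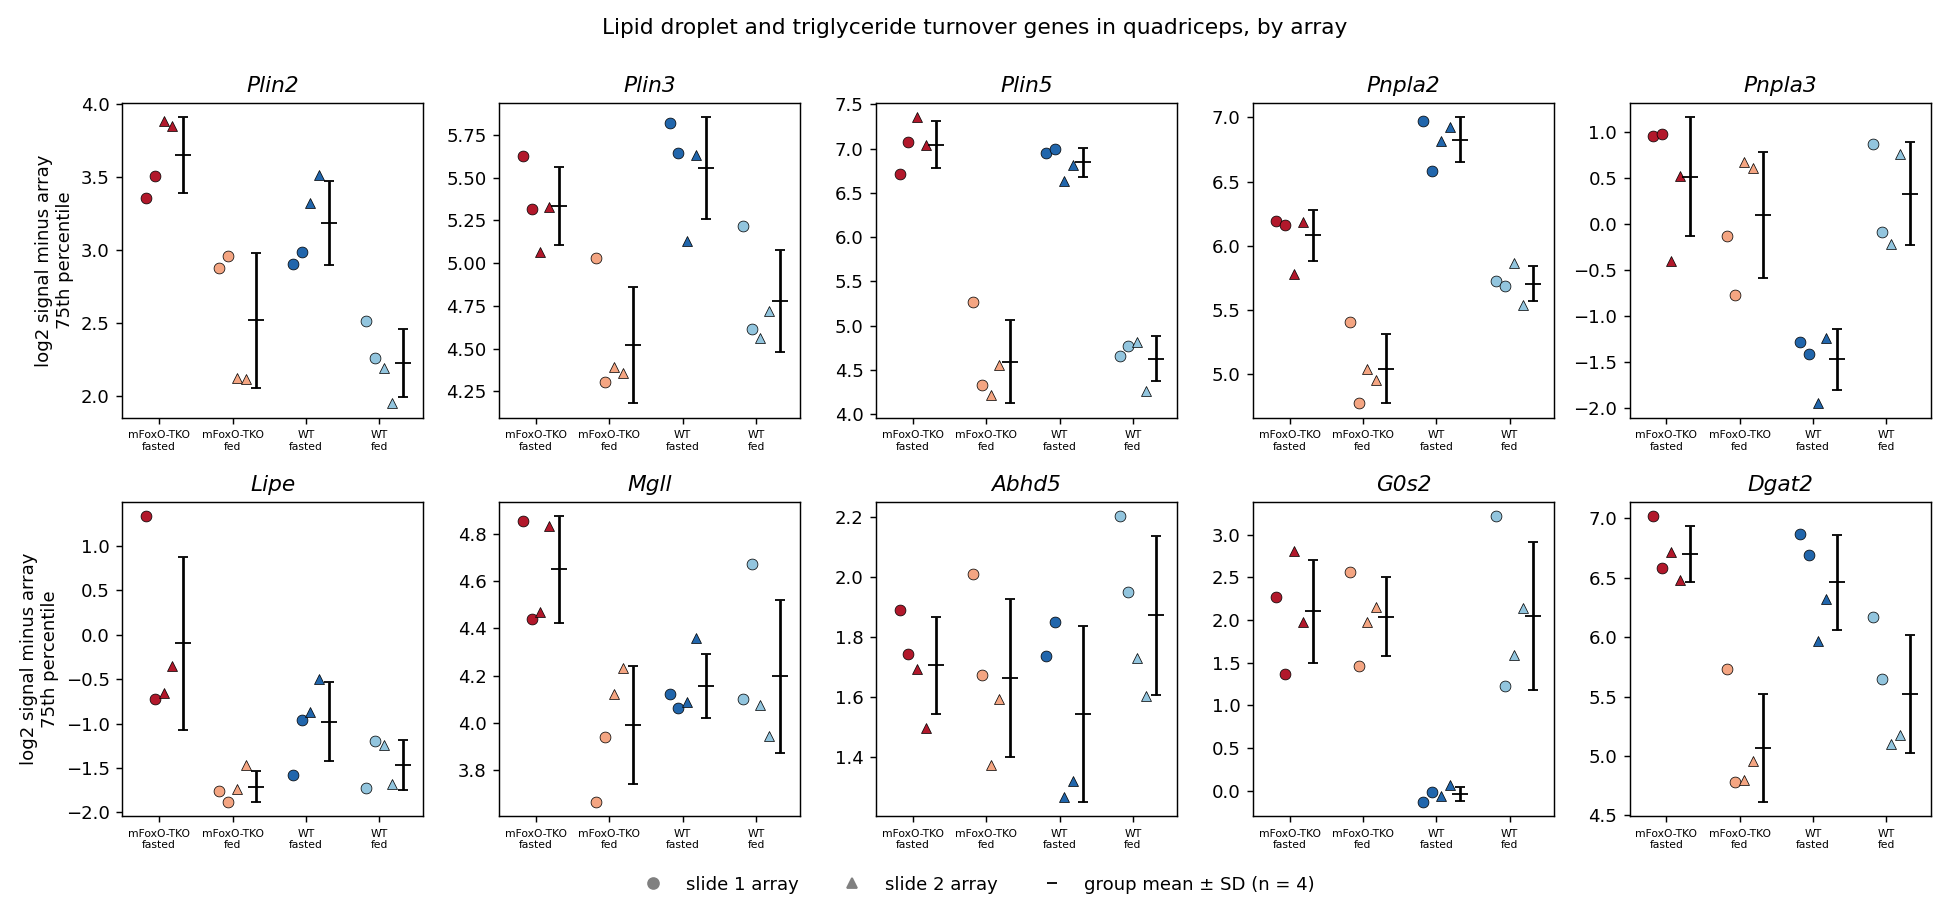
Levels of the 10 genes on each of the 16 arrays (vertical axes: log2 signal minus the array's 75th percentile; circles, slide 1; triangles, slide 2; bars, group mean ± SD, n = 4). Plin5 and Pnpla2 lay higher in fasted than in fed muscle of both genotypes, whereas G0s2 and Pnpla3 lay lowest on the 4 fasted WT arrays.

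In fasted mFoxO-TKO muscle, 7 of the 10 genes were higher than in fed mFoxO-TKO muscle and 0 were lower; of all genes tested, 8.52% passed, 4.30% higher and 4.23% lower. The 7 were all 3 perilipins, the lipases Pnpla2, Lipe and Mgll, and Dgat2. In fasted WT muscle, 5 were higher than in fed WT muscle (the 3 perilipins, Pnpla2 and Dgat2) and 2 were lower (G0s2 and Pnpla3), against 20.8% of all genes, 11.2% higher and 9.57% lower. The median change of the 10 genes was 0.93 in mFoxO-TKO and 0.63 in WT muscle, beside 0.04 and 0.02 over all genes. The fasted and fed arrays did not overlap for 7 of the 10 genes in mFoxO-TKO and for 5 of 10 in WT muscle, against 13.8% and 28.2% of all genes.

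Among the coat genes, Plin5, whose protein is abundant in oxidative tissue and tethers droplets to mitochondria, had the highest fasting change of the 10 in both genotypes. Its level was 6.71, 7.07, 7.35 and 7.04 on fasted mFoxO-TKO arrays, against 5.27, 4.32, 4.22 and 4.56 on fed mFoxO-TKO arrays. It was 6.95, 6.995, 6.63 and 6.81 on fasted WT arrays, against 4.65, 4.77, 4.82 and 4.26 on fed WT arrays. Every fasted array lay above every fed array, and the genotypes interleaved in each feeding state. Fasting raised Plin5 by 2.45 ± 0.21 (5.48-fold) in mFoxO-TKO muscle (adjusted p = 2.06e-05) and by 2.22 ± 0.21 (4.67-fold) in WT muscle (adjusted p = 5.78e-06). Within slides 1 and 2 the differences were 2.10 and 2.81 in mFoxO-TKO and 2.26 and 2.18 in WT muscle. The call held in each genotype in 32 of 32 alternatives, 16 other settings and 16 arrays left out in turn. Some of these could not move the change itself. Arrays of the other genotype are outside the comparison, blocks left the change as it was, and Plin5 has 1 probe to choose from. The counts of alternatives for other genes below include such cases too.

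Plin2, which coats droplets in most cell types, had levels of 3.36, 3.50, 3.88 and 3.85 in fasted mFoxO-TKO muscle, against 2.88, 2.96, 2.13 and 2.12 in fed mFoxO-TKO muscle. In WT muscle it was 2.90, 2.99, 3.32 and 3.51 when fasted, against 2.52, 2.26, 2.19 and 1.95 when fed. In neither genotype did fasted and fed arrays overlap, and within fed mFoxO-TKO muscle the slide 1 arrays were the higher pair. Fasting raised Plin2 by 1.13 ± 0.22 (2.19-fold) in mFoxO-TKO muscle (adjusted p = 0.00559) and by 0.95 ± 0.22 (1.93-fold) in WT muscle (adjusted p = 0.00603). Within slides, the difference in mFoxO-TKO muscle was 0.51 on slide 1 and 1.74 on slide 2, and in WT muscle 0.56 and 1.35. The slide 2 minus slide 1 difference was 1.23 ± 0.21 in mFoxO-TKO and 0.79 ± 0.21 in WT muscle (adjusted p = 0.575 and 0.9999, unadjusted p = 0.000127 and 0.00348). Of 19337 genes, 0 passed that limma test in either genotype. At an unadjusted p under 0.05 there were 1124 and 762, where chance alone gives a share of about 0.05. Each group had 2 arrays on a slide, so a miss in that test does not show that the slides agree.

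Plin3, which coats small and newly formed droplets, had levels of 5.63, 5.31, 5.07 and 5.33 in fasted mFoxO-TKO muscle, against 5.03, 4.30, 4.39 and 4.36 in fed mFoxO-TKO muscle. In WT muscle its levels were 5.82, 5.65, 5.13 and 5.63 when fasted, against 5.21, 4.62, 4.56 and 4.72 when fed. The groups did not overlap in mFoxO-TKO muscle, whereas fasted WT replicate 3 lay below fed WT replicate 1. Fasting raised it by 0.81 ± 0.21 (1.76-fold) in mFoxO-TKO muscle (adjusted p = 0.0224) and by 0.78 ± 0.21 (1.71-fold) in WT muscle (adjusted p = 0.0133). The mFoxO-TKO call was lost without fed mFoxO-TKO replicate 2, 3 or 4, where the adjusted p was 0.0768, 0.0656 and 0.0596, and in 4 of the 16 other settings (adjusted p up to 0.308), so that it held in 25 of the 32 alternatives.

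**Figure D2:**
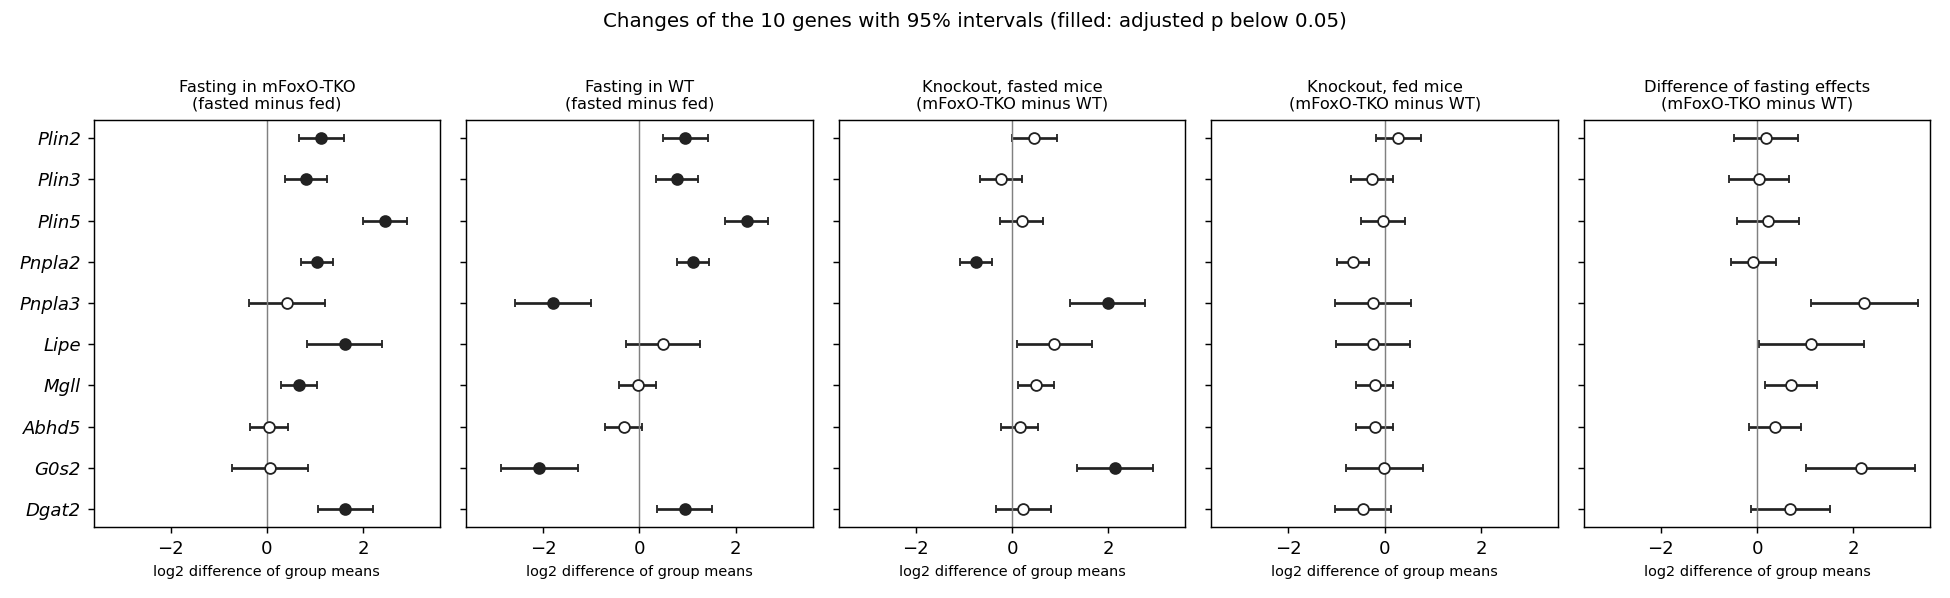
Differences of group means for the 10 genes in 5 comparisons (horizontal axis: log2 difference; bars, 95% intervals; filled points, adjusted p under 0.05 over all genes). G0s2 and Pnpla3 lay at -2.08 and -1.80 for fasting in WT muscle but at 0.06 and 0.42 for fasting in mFoxO-TKO muscle.

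Among the lipases, Pnpla2 (ATGL) was higher in fasted than in fed muscle of both genotypes and lower in mFoxO-TKO than in WT muscle when fasted. Its levels were 6.19, 6.16, 5.78 and 6.19 in fasted mFoxO-TKO and 5.41, 4.77, 5.04 and 4.95 in fed mFoxO-TKO muscle. They were 6.97, 6.58, 6.82 and 6.93 in fasted WT and 5.73, 5.69, 5.87 and 5.54 in fed WT muscle. The order of the group means was therefore fasted WT, fasted mFoxO-TKO, fed WT and fed mFoxO-TKO. The only overlap among the 4 groups was between the lowest fasted mFoxO-TKO array and the highest fed WT array. Fasting raised Pnpla2 by 1.04 ± 0.16 (2.05-fold) in mFoxO-TKO muscle (adjusted p = 0.00103) and by 1.12 ± 0.16 (2.17-fold) in WT muscle (adjusted p = 0.00012). The difference between these fasting effects was -0.08 ± 0.22, with a 95% interval from -0.55 to 0.39. Within slides 1 and 2 the fasting difference was 1.09 and 0.99 in mFoxO-TKO and 1.07 and 1.17 in WT muscle.

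Lipe had levels of 1.34, -0.72, -0.65 and -0.35 in fasted mFoxO-TKO muscle, against -1.75, -1.88, -1.74 and -1.47 in fed mFoxO-TKO muscle. In WT muscle the levels were -1.58, -0.96, -0.87 and -0.50 when fasted, against -1.72, -1.19, -1.25 and -1.69 when fed. All fasted mFoxO-TKO arrays lay above the fed ones, with replicate 1 far above the other 3, while the WT groups overlapped. Fasting raised Lipe by 1.61 ± 0.36 (3.06-fold) in mFoxO-TKO muscle (adjusted p = 0.0118), and by 1.13 without fasted mFoxO-TKO replicate 1 (adjusted p = 0.0385). The WT change was 0.48 ± 0.36 (adjusted p = 0.405), and the 2 fasting effects differed by 1.13 ± 0.51, which did not pass (adjusted p = 0.457).

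Mgll had levels of 4.86, 4.44, 4.47 and 4.84 in fasted mFoxO-TKO muscle, against 3.66, 3.94, 4.12 and 4.23 in fed mFoxO-TKO muscle. In WT muscle they were 4.12, 4.06, 4.09 and 4.36 when fasted, against 4.10, 4.67, 4.07 and 3.94 when fed. The mFoxO-TKO groups did not overlap, and all 4 fasted WT arrays lay within the range of the fed WT arrays. Fasting raised Mgll by 0.66 ± 0.18 (1.58-fold) in mFoxO-TKO muscle (adjusted p = 0.0308), and the WT change was -0.04 ± 0.18 (adjusted p = 0.914). The mFoxO-TKO call was lost without fed mFoxO-TKO replicate 1, 2 or 3 or without fasted mFoxO-TKO replicate 1 or 4, with adjusted p from 0.0507 to 0.0852. It was also lost in 7 of the 16 other settings (adjusted p up to 0.225), so that it held in 20 of the 32 alternatives. With every probe tested, the other kept Mgll probes gave 0.80 (adjusted p = 0.0488) and 0.64 (adjusted p = 0.0913); 1 more was too dim to be kept. The 2 fasting effects differed by 0.70 ± 0.25, which did not pass (adjusted p = 0.271).

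Dgat2, on the synthesis side, had levels of 7.02, 6.58, 6.71 and 6.48 in fasted mFoxO-TKO muscle, against 5.73, 4.78, 4.79 and 4.96 in fed mFoxO-TKO muscle. In WT muscle they were 6.87, 6.69, 5.96 and 6.32 when fasted, against 6.17, 5.64, 5.10 and 5.17 when fed. The mFoxO-TKO groups lay well apart, and in WT muscle fasted replicate 3 lay below fed replicate 1. Fasting raised Dgat2 by 1.63 ± 0.27 (3.09-fold) in mFoxO-TKO muscle (adjusted p = 0.00194) and by 0.94 ± 0.27 (1.92-fold) in WT muscle (adjusted p = 0.0217). The WT call was lost without fasted WT replicate 1 or 2 or fed WT replicate 3 or 4, with adjusted p from 0.0572 to 0.0746, and in 2 of the 16 other settings (adjusted p up to 0.216), so that it held in 26 of the 32 alternatives. The 2 fasting effects differed by 0.69 ± 0.38 (adjusted p = 0.603).

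**Figure D3:**
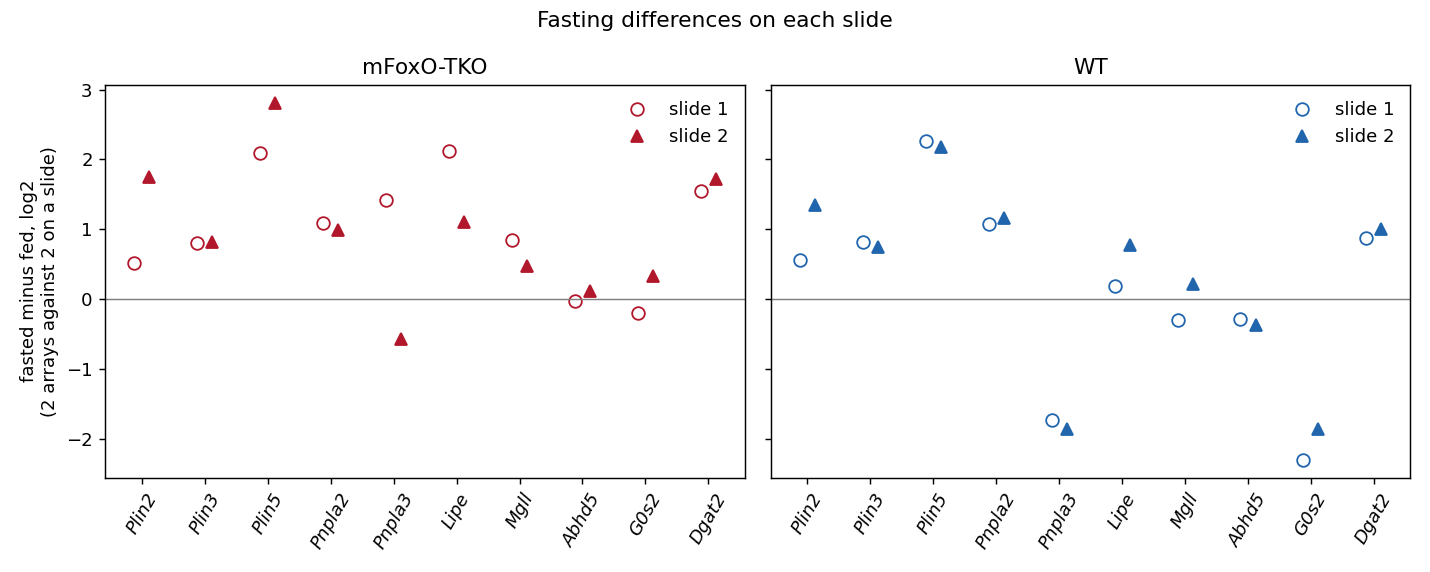
Fasted minus fed log2 differences of the 10 genes on each slide (2 arrays against 2; open circles, slide 1; filled triangles, slide 2), for mFoxO-TKO at left and WT at right. Pnpla3 in mFoxO-TKO muscle was at 1.42 on slide 1 and -0.58 on slide 2, and in WT muscle at -1.74 and -1.87.

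G0s2, the ATGL inhibitor, was at similar levels in 3 of the groups and low in fasted WT muscle. Its levels were 2.27, 1.36, 2.81 and 1.97 in fasted mFoxO-TKO and 2.57, 1.46, 1.98 and 2.16 in fed mFoxO-TKO muscle. They were -0.13, -0.02, -0.06 and 0.06 in fasted WT and 3.22, 1.23, 1.60 and 2.14 in fed WT muscle. The 4 fasted WT arrays lay within 0.2 of one another and below every other array, while the other 3 groups overlapped. Fasting changed G0s2 by 0.06 ± 0.37 in mFoxO-TKO muscle (adjusted p = 0.948) and lowered it by a log2 change of -2.08 ± 0.37 (4.24-fold) in WT muscle (adjusted p = 0.000974). The difference between these effects was 2.15 ± 0.53, with a 95% interval from 1.02 to 3.27, and missed the threshold (adjusted p = 0.0700). Without fed WT replicate 2 it passed (2.42, adjusted p = 0.0380). It missed with the slide as a block (adjusted p = 0.0578), and in all it passed in 5 of 31 alternatives to this fit, which has no block. Within slides 1 and 2 the fasting difference was -0.20 and 0.33 in mFoxO-TKO muscle and -2.30 and -1.86 in WT muscle.

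Pnpla3 encodes a droplet protein related to ATGL, and in mouse liver its expression is high in the fed state. Its levels were 0.96, 0.97, -0.40 and 0.52 in fasted mFoxO-TKO and -0.13, -0.78, 0.67 and 0.61 in fed mFoxO-TKO muscle. They were -1.29, -1.41, -1.95 and -1.24 in fasted WT and 0.87, -0.09, -0.21 and 0.76 in fed WT muscle. As for G0s2, the fasted WT arrays were the lowest 4 and the other groups overlapped. Fasting changed Pnpla3 by 0.42 ± 0.37 in mFoxO-TKO muscle (adjusted p = 0.567), with opposite signs on the slides, and lowered it by a log2 change of -1.80 ± 0.37 (3.49-fold) in WT muscle (adjusted p = 0.00256). The difference between the effects was 2.22 ± 0.52, with a 95% interval from 1.11 to 3.33 (adjusted p = 0.0554). It passed without fasted mFoxO-TKO replicate 3 (2.52, adjusted p = 0.0229) and with the slide as a block (adjusted p = 0.0474), and in all in 9 of 31 alternatives. With every probe tested, a second Pnpla3 probe gave -1.04 for fasting in WT muscle (adjusted p = 0.0269) and 0.41 in mFoxO-TKO muscle (adjusted p = 0.498).

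Abhd5, the ATGL activator, passed in none of the comparisons. Its levels were 1.89, 1.74, 1.69 and 1.499 in fasted mFoxO-TKO and 2.01, 1.67, 1.37 and 1.59 in fed mFoxO-TKO muscle. They were 1.74, 1.85, 1.27 and 1.32 in fasted WT and 2.20, 1.95, 1.73 and 1.60 in fed WT muscle. The 4 groups overlapped. The fasting change was 0.04 ± 0.18 in mFoxO-TKO muscle, with a 95% interval from -0.34 to 0.43, and -0.33 ± 0.18 in WT muscle, with an interval from -0.71 to 0.06 (adjusted p = 0.926 and 0.235). With the slide as a block the WT change passed (adjusted p = 0.0401), as it did in 4 of the 32 alternatives. With every probe tested, the 3 Abhd5 probes differed in sign for fasting in WT muscle (-0.33, -0.02 and 0.37), and none passed; 2 fasted arrays lacked a value for the probe at 0.37.

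Between the genotypes in the fasted state, 2 of the 10 genes were higher in mFoxO-TKO muscle (G0s2 and Pnpla3) and 1 was lower (Pnpla2); of all genes tested, 9.36% passed, 4.39% higher and 4.97% lower. G0s2 was higher by 2.14 ± 0.37 (4.41-fold, adjusted p = 0.00155) and Pnpla3 by 1.98 ± 0.37 (3.96-fold, adjusted p = 0.00246). Pnpla2 was lower by a log2 change of -0.74 ± 0.16 (1.67-fold, adjusted p = 0.00579). These comparisons use the same fasted WT arrays as fasting in WT muscle, so the values for G0s2 and Pnpla3 are not a second measurement of that change. In each of the 3 the arrays of the genotypes did not overlap, as for Mgll, which was at 0.49 ± 0.18 and did not pass (adjusted p = 0.103); 12.8% of all genes did not overlap. Within slide 1 and slide 2 the differences were 1.89 and 2.39 for G0s2, 2.31 and 1.66 for Pnpla3, and -0.60 and -0.89 for Pnpla2. The second Pnpla3 probe gave 1.21 (adjusted p = 0.0214). For the other 6 genes the differences lay between -0.22 (Plin3) and 0.88 (Lipe, adjusted p = 0.161).

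In the fed state 0 of the 10 genes passed between the genotypes in limma (1 had an unadjusted p under 0.05), where 1.02% of all genes passed, 0.508% higher and 0.512% lower. Pnpla2 alone had groups that did not overlap, as did 9.16% of all genes, with a difference of -0.66 ± 0.16 (1.58-fold lower in mFoxO-TKO muscle) and an adjusted p of 0.0597; its unadjusted p was 0.00066. Pnpla2 passed without fed mFoxO-TKO replicate 1 (adjusted p = 0.0243), fasted mFoxO-TKO replicate 1 (0.0478) or fasted mFoxO-TKO replicate 3 (0.0429), and in all in 11 of the 32 alternatives, among them the slide as a block (0.0377). The fasted arrays are not in this comparison. Without either of them the Pnpla2 difference stayed at -0.66, and only the estimate of spread and the adjustment moved. Its within-slide differences were -0.61 and -0.71. The other 9 genes lay between -0.45 (Dgat2) and 0.29 (Plin2), with 95% intervals that included 0; for G0s2 the interval ran from -0.80 to 0.79. The difference of the fasting effects passed for 0 of the 10 genes (4 had an unadjusted p under 0.05), where 1.15% of all genes passed, 0.423% higher and 0.724% lower, with the highest values for Pnpla3 and G0s2 given above.

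The 48 other genes of triglyceride synthesis, breakdown and droplet structure on the list had 44 members tested. In mFoxO-TKO muscle 9 of the 44 rose with fasting and 0 fell, where 4.30% of all genes rose and 4.23% fell. In WT muscle 13 rose and 2 fell, where 11.2% of all genes rose and 9.57% fell. The median changes of the 44 were 0.08 and 0.07, beside 0.04 and 0.02 over all genes. Plin4, a further perilipin, rose by 1.68 ± 0.23 in mFoxO-TKO muscle (adjusted p = 0.000513) and by 1.81 ± 0.23 in WT muscle (adjusted p = 5.28e-05). Gpat3, which catalyses the first step of glycerolipid synthesis, rose by 1.67 ± 0.27 (adjusted p = 0.00161) and 2.02 ± 0.27 (adjusted p = 8.85e-05). Cidea and Cidec, whose proteins enlarge droplets, rose in mFoxO-TKO muscle by 1.49 ± 0.40 and 1.41 ± 0.32 (adjusted p = 0.0290 and 0.0130). In WT muscle Cidec rose by 1.21 ± 0.32 (adjusted p = 0.0139), whereas Cidea was at 0.33 ± 0.40 with overlapping groups (adjusted p = 0.635) and at -0.82 and 1.48 within slides 1 and 2.

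Between the genotypes in the fasted state, 2 of these 44 genes were higher in mFoxO-TKO muscle and 4 lower; of all genes 4.39% were higher and 4.97% lower, so with 44 genes these counts are near the background. Pnpla7, a lysophospholipase of the Pnpla2 family, had mean levels of 1.89 ± 0.14 in fasted mFoxO-TKO and 1.31 ± 0.20 in fed mFoxO-TKO muscle, and of 4.47 ± 0.40 in fasted WT and 2.40 ± 0.19 in fed WT muscle (SD, n = 4). All mFoxO-TKO arrays lay below all WT arrays, and the fasted difference was -2.58 ± 0.18 (5.98-fold lower, adjusted p = 4.49e-07). Pnpla7 was also lower in fed mFoxO-TKO muscle (-1.09 ± 0.18, adjusted p = 0.00665), the 1 gene of the 44 to pass there. Lpin2, a phosphatidate phosphatase that makes diglyceride, was lower by -1.73 ± 0.43 on the log2 scale in fasted mFoxO-TKO muscle (adjusted p = 0.0174); it rose by 1.87 ± 0.43 with fasting in WT muscle (adjusted p = 0.0055). Its fasted WT arrays split by slide, at -1.82 and -1.83 on slide 1 and at 0.05 and 0.45 on slide 2. Within slides 1 and 2 the Lpin2 difference between the fasted genotypes was -0.78 and -2.68, and its fasting change in WT muscle was 1.06 and 2.69. Faf2, which takes part in protein degradation at droplets, was at -0.86 ± 0.18 (adjusted p = 0.00484), and Hsd17b13, a droplet protein, at 1.16 ± 0.29 (adjusted p = 0.0168) on a probe well above background on 3 of 4 fasted mFoxO-TKO and 2 of 4 fasted WT arrays. The fasting effects differed for 2 of the 44 genes, Pnpla7 (-1.49 ± 0.26, adjusted p = 0.0102) and Faf2 (-1.21 ± 0.25, adjusted p = 0.0260).

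**Figure D4:**
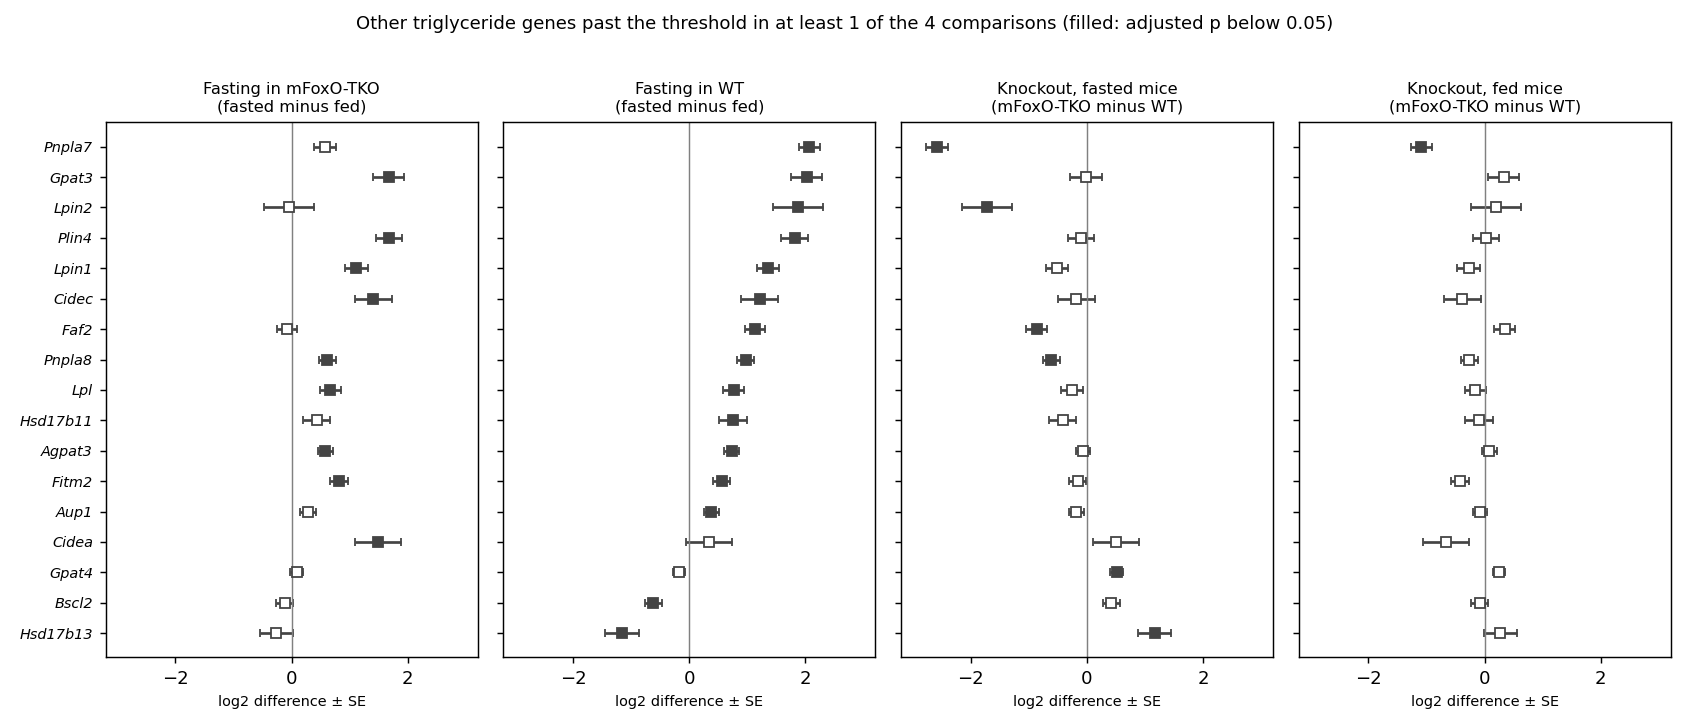
Log2 differences ± SE of the 17 other triglyceride genes that passed in at least 1 of 4 comparisons (filled squares, adjusted p under 0.05), ordered by their change with fasting in WT muscle. Pnpla7 lay at -2.58 between fasted mFoxO-TKO and fasted WT muscle, and Plin4 at -0.10.

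Several of these genes are also active in fat cells, and whole muscle can hold some; in such samples fewer cells of a type and less RNA per cell cannot be told apart. Of 10 fat cell markers, 9 were kept and Lep was not. The summed linear level of the 7 markers with a value on every array, in units of the array's 75th percentile, ran from 93.2 to 107 in fasted mFoxO-TKO, from 78.8 to 131 in fed mFoxO-TKO, from 82.0 to 154 in fasted WT and from 87.5 to 136 in fed WT muscle, so all groups overlapped. The brightest probe dominates such a sum: group means on the log2 scale were 5.90 to 6.19 for Cfd, 2.87 to 4.46 for Cidec and 0.19 to 0.91 for Plin1. The sum therefore mostly follows Cfd and does not measure how much fat cell material a sample held. Of the 9 markers tested, fasting raised Cidec and lowered Retn in mFoxO-TKO muscle, and raised Cidec and lowered Adrb3, Thrsp and Retn in WT muscle, and 0 passed, or had an unadjusted p under 0.05, between the genotypes. Across the 16 arrays, which share the 4 groups, Pearson's r between a member and this sum lay between -0.18 (Pnpla3) and 0.46 (Pnpla2), and within groups between -0.04 (Mgll) and 0.65 (Pnpla2). Its part in the results was not tested.

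The genes whose levels followed 3 of the members most closely were found over the 16 arrays among 12762 named genes, as a description without a test. For Plin5 these were Slc25a34 (Pearson r = 0.98), Slc25a20, the mitochondrial carnitine carrier (0.97), and Galnt15 (0.97). For Pnpla2 they were Acacb, the acetyl-CoA carboxylase of the mitochondrial surface (0.96), Klhl38 (0.96) and Tfdp2 (0.95). For Plin2 they were BC048679 (0.91), Plekhd1 (0.90) and Mbp (0.90). The arrays share the 4 groups, so genes with the same group means score high. Slc25a20 rose with fasting by 1.23 ± 0.12 in mFoxO-TKO muscle (adjusted p = 4.60e-05) and by 0.96 ± 0.12 in WT muscle (adjusted p = 5.05e-05). Acacb rose by 0.78 ± 0.12 and 0.90 ± 0.12 and, like Pnpla2, was lower in fasted mFoxO-TKO than in fasted WT muscle, by a log2 change of -0.44 ± 0.12 (adjusted p = 0.0338). Slc25a20 and Acacb were picked by their match over these same arrays, so their changes and p-values are not separate support for the members.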

How the data were processed

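Per the labels, total RNA of 16 quadriceps samples carried the Cy3 dye, and each was hybridised to 1 Agilent array read in 1 channel. Per the file headers, spots were quantified with Feature Extraction 11.0.1.1, whereas the submitters' processing notes name 9.5. The deposited processed signal is an intensity that, per the file headers, had its background subtracted and its spatial trend removed array by array, with no scaling between arrays. The authors' deposited value table holds scores, the processed signal times 1 factor per array; it and the deposited median signal intensities served as alternatives.

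Spots that an array's file marked as uneven or as population outliers were left out on that array (0.143% to 3.28% of an array). Both kinds are called uneven spots below. With controls removed there were 59305 spots on an array, counted before that step. They were averaged to 55681 probes as log2 intensities, without the spots left out, and the array's 75th percentile was subtracted. A probe was kept if all arrays of any group had it well above background (28570 probes), and the brightest per gene was used. With limma 3.58.1 (R 4.3.3; lmFit, eBayes), 1 mean per group was estimated in a joint linear fit of the 16 arrays (residual degrees of freedom 12, prior 3.24), and p-values were adjusted by Benjamini-Hochberg over 21280 genes, with a threshold of 0.05. Values for every probe come from a separate fit of all kept probes. The script was tested on simulated data for fasting in WT muscle alone. Its noise was independent between arrays, so it did not test the effect of shifts shared by a slide or a replicate number. Precision is limited by the 4 arrays per group.

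The 10 genes, the other lists and the rules below were chosen with earlier results of these data known. Named genes are the 10 members, the Foxo genes, up to 4 passing list genes per comparison with the greatest change, markers the text needs (Cidec in WT muscle is one of these), and the 3 genes most correlated with Plin2, Plin5 and Pnpla2. The endothelial, macrophage and fibroblast lists had 3 genes each; 1 endothelial and 1 fibroblast gene fell with fasting in WT muscle, 1 macrophage gene fell with fasting in mFoxO-TKO muscle, and no other passed in the 4 comparisons of 2 groups. The file headers name genome build mm9, and promoter sequences come from RefSeq's GRCm38.p6, matched by symbol. Dgat2 had no promoter entry. Alternatives were other scalings, background corrections, filters, probes and spread settings, blocks, single slides, and each array left out.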

Additional observations from a re-analysis of the deposited data

Results flagged for a closer look

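Of 84 groups of 4 arrays examined for the 10 genes, the Foxo genes and the other triglyceride genes named above, 3 held an array far from the other 3; chance marks about 1 group in 20. Plin3 stood at 5.03 on fed mFoxO-TKO replicate 1, against 4.30 to 4.39 on the other fed mFoxO-TKO arrays. Plin4 stood at 6.76 on the same array, against 6.01 to 6.11. Pnpla2 stood at 5.78 on fasted mFoxO-TKO replicate 3, against 6.16 to 6.19 on the other fasted mFoxO-TKO arrays.

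The effect of fasting differed between the genotypes, by the test of the difference itself, for 3 named genes in the fit without a block, none of them among the 10. G0s2 and Pnpla3 missed in that fit and passed in some alternatives, as given with their values above. The difference, mFoxO-TKO minus WT, was -1.49 for Pnpla7, -1.21 for Faf2 and -1.64 for Foxo1, 1 of the deleted genes.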

How the results depend on the processing

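No change that passed reversed its sign in the 16 other settings or with any of the 16 arrays left out. Counts of the 10 genes past the threshold differed from the main ones as follows. For fasting in mFoxO-TKO muscle (main count 7), slide 1 alone gave 1, a fit of the compared groups alone 4, no filter and slide 2 alone 5, and quantile normalization, normexp and uneven spots kept 6. Over all genes, 914 rose and 900 fell in the main fit, against 46 and 81 of 19590 on slide 1 alone. With the compared groups alone 509 rose and 438 fell, and on slide 2 alone 751 and 874 of 20994. For fasting in WT muscle (main count 7), slide 1 alone gave 2, no filter 6, and the percentile over detected probes, the authors' table and both blocks 8, with Abhd5 as the added gene. Over all genes, 2390 rose and 2036 fell in the main fit, 432 and 444 on slide 1 alone, and 3202 and 2718 with the slide block. For the knockout in fasted mice (main count 3), slide 1 alone gave 1 and slide 2 alone 2, from 2 arrays per group. Over all genes, 934 were higher and 1057 lower in the main fit, 251 and 165 on slide 1 alone, and 725 and 1131 on slide 2 alone. For the knockout in fed mice (main count 0), 1 gene, Pnpla2, passed with the percentile over detected probes, quantile normalization, uneven spots kept, the replicate block, the slide block, the authors' table, trend and robust settings, and the local shift subtracted. Over all genes, 108 were higher and 109 lower in the main fit, against 213 and 209 with the slide block. For the difference of the fasting effects (main count 0), 2 genes (G0s2 and Pnpla3) passed with the percentile over detected probes, the filter on all arrays, the replicate block and the authors' table, and 1 (Pnpla3) with uneven spots kept, the slide block, trend and robust settings, and the local shift. Over all genes, the difference was positive for 90 and negative for 154 passing genes in the main fit, and for 242 and 455 with the replicate block. With each array left out in turn, the counts were 5 to 7 (fasting in mFoxO-TKO), 6 to 7 (fasting in WT), 3 throughout (knockout, fasted), 0 to 1 (knockout, fed) and 0 to 1 (difference of the fasting effects).

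The correlation of deviations between arrays with the same replicate number ran from 0.06 to 0.39 over 24 pairs, 23 of them above 0.1. The labels give a number and do not say that it pairs samples, so the main fit did not pair by it. The correlations do not show that same-numbered samples are unrelated. The main fit has no block for number or slide. Its counts of 0 for the knockout in fed mice and for the difference of the fasting effects depend on that choice. With the slide as a block, limma passed Pnpla2 in the former (adjusted p = 0.0377) and Pnpla3 in the latter (adjusted p = 0.0474). Same-numbered arrays share a slide; other pairs on 1 slide ran from -0.03 to 0.31 and pairs across slides from -0.38 to -0.04. Of the 16 arrays, 13 correlated best, on average over the other groups, with their own number. With the replicate block, Abhd5 fell with fasting in WT muscle by a log2 change of -0.33 (adjusted p = 0.0331), Pnpla2 was lower in fed mFoxO-TKO than in fed WT muscle (adjusted p = 0.0339), and the fasting effects differed for G0s2 and Pnpla3 (adjusted p = 0.0254 and 0.0370). The percentile over detected probes moved the median of all genes for fasting in WT muscle to -0.11, against 0.02. The local shift (an array's regional deviation, in blocks of 24 by 20 spots), the test between slides and the correlations within slides were chosen after seeing the data. The cause of these differences was not tested. The share of spots well above background (45.0% to 75.2%) and 4 arrays per group limit what can be detected.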

Other observations

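Within groups, taking each array's deviation from its group mean, Abhd5 and Dgat2 had a Pearson r of 0.90 over the 16 arrays and Plin3 and Dgat2 one of 0.87, although Abhd5 did not pass with fasting and Dgat2 did. All 3 genes had higher means on slide 1 than on slide 2 in 4 of 4 groups, and with deviations taken from the mean of each group on each slide the r was 0.82 and 0.87. G0s2 and Pnpla3, the 2 genes low in fasted WT muscle, had an r of 0.78 over all arrays of 0.19 within groups and of 0.48 within groups and slides.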
